A study of Saccharomyces cerevisiae with 49 samples.

Results

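The comparison set 4 samples of an oscillating yeast culture, taken at 14.00 to 14.25 h and phase angles of 244.11 to 267.71 degrees, against 4 samples taken at 14.50 to 14.75 h and 291.30 to 314.90 degrees. These 8 of the 49 samples of the series were picked by their labelled phase angle, with earlier results of these data known. They are called the early and the middle samples here. All came from 1 continuous culture of Saccharomyces cerevisiae CEN.PK113-7D, a haploid laboratory strain of mating type a (MATa), fed with glucose and ammonium medium and oscillating with a period of about 4 h. No mutation, drug or other treatment separated the groups, and each sample, taken every 5 min, was hybridised to 1 expression array. Early to middle G1 is a working name for this stretch of the cycle. The labels give a phase angle for each sample, running on from 244.11 to 614.63 degrees over the series, and name no cell cycle stage.

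In budding yeast, transcription passes through a fixed order of programmes as a cell leaves mitosis and enters G1. The CLB2 cluster, switched on by the regulators Mcm1, Fkh2 and Ndd1, encodes the mitotic cyclins and the machinery of cytokinesis and is shut off as mitosis ends. Genes of the M/G1 boundary follow, among them the inhibitor SIC1, a target of Swi5, and the enzymes with which a daughter cell digests its septum. Later in G1 the cyclin Cln3 helps to release the factors SBF and MBF from the repressor Whi5, which starts the late G1 genes. Oscillating cultures also show a pulse of the genes for making ribosomes.

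Values below are array signals after each array was set to the same median, or log2 differences of these signals as middle minus early. A gene "rose" or "fell" where limma's test, with Benjamini-Hochberg adjustment over all 5470 S. cerevisiae probe sets tested, gave an adjusted p under 0.05. The samples of a group are successive samples of 1 culture, which means that the p-values reflect how such samples scatter, not how separate cultures would differ. The median signal before scaling ran from 2044.5 to 2323.55 in the early arrays and from 1558.95 to 2112.1 in the middle ones. The array numbers in the labels ran from 6 to 23 in the early group and from 25 to 45 in the middle group. Within these 8 samples array order and phase therefore cannot be told apart. The 2 samples between the groups, at 14.33 and 14.42 h, carry array numbers 46 and 33. A second pass through the early angles, at 606.97 and 614.63 degrees or 246.97 and 254.63 degrees of the next cycle, carries numbers 37 and 34, which lie inside the range of the middle arrays. The log2 ratio of the 3′ to the 5′ control probe set of RIP1 was 0.23 ± 0.07 (SD, n = 4) in the early and 0.33 ± 0.05 (SD, n = 4) in the middle arrays (two-sided exact permutation p = 0.0286, the smallest 4 against 4 samples allow, unadjusted over 4 transcripts). The ratios of ACT1, TDH1 and SPT15 gave exact p of 0.54, 0.51 and 0.29.

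Signals of marker genes were set beside the labelled mating type. The summed signal of 7 a-specific genes lay between 32474 and 38048 in the early and between 31057 and 34538 in the middle samples. That of 5 alpha-specific genes lay between 2635 and 2795 and between 2603 and 2905. In this alpha set SAG1 had means of 1278 early and 1276 middle, STE3 of 697 and 758 and MF(ALPHA)1 of 612 and 608. MF(ALPHA)2 stood at 99.05 and 90.83, and HMLALPHA1, the alpha regulator, at 13.5 and 16.5. Signals of different probe sets cannot be compared as amounts of RNA, so these values alone do not decide the mating type. The pheromone receptor STE2 was measured at 5640 ± 419 in the early and 5153 ± 156 in the middle samples (SD, n = 4 each). BAR1, the protease that degrades alpha factor, fell by 0.63 on the log2 scale (adjusted p = 0.00705), and STE6, the a-factor exporter, fell by 0.21 (adjusted p = 0.047), a call lost without 7 of the 8 single samples. The other 5 a-specific and all 5 alpha-specific genes did not pass the test.

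Over the 0.5 h between the group means, 160 of the 5428 genes tested rose (2.95%) and 89 fell (1.64%). The falls were larger: 13 genes fell at least 2-fold (0.239%) and 0 rose at least 2-fold (0%). The median size of a called change was 1.39-fold among the 89 genes that fell and 1.24-fold among the 160 genes that rose. The 13 genes that fell at least 2-fold were YMR030W-A, CHS2, HOF1, CLB2, CLB1, YNL058C, SWI5, KIN3, SUR7, BUD4, PCL9, CYK3 and SFG1. The first 12 follow the naming rule, and SFG1 was named after its value was seen. The samples of the groups did not overlap in 426 genes higher in the middle (7.85%) and 282 lower (5.2%). How many rose depended on the scaling: 20 rose and 206 fell with the signals as deposited, where the median of all genes was −0.26, and 146 rose and 137 fell with quantile normalization. With all 49 samples in 1 fit, whose spread includes the movement inside each window, 1 rose (0.0184%) and 32 fell (0.59%). The 1 that rose was HTB2. Without 1 sample in turn, 33 to 185 rose and 47 to 91 fell, the fewest without the second early sample.

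Mitotic transcripts were still going down during this interval. Of the 21 CLB2 cluster genes tested, 15 fell, 0 rose, and 6 did not pass the test. The list had a median log2 difference of −0.56, against 0.02 over the 5428 genes tested. In these bulk samples, fewer cells holding a transcript and less transcript per cell cannot be told apart. CLB2 itself, the main mitotic cyclin, read 674, 612, 492 and 379 in the 4 early samples, 275 and 225 in the 2 between, and 240, 161, 176 and 148 in the middle samples. The groups did not overlap, and the early values descended with time. The mean of CLB2 was 540 ± 131 in the early and 181 ± 40.7 in the middle samples (SD, n = 4 each), 2.96-fold lower (log2 −1.57, SE 0.20, adjusted p = 0.00603). Over the 10 samples of 14.00 to 14.75 h the CLB2 signal followed a slope of −3.10 log2 units per hour (SE 0.21), a fall by a factor of 2 every 19.4 min. The window with the highest CLB2 mean, 515.12 to 538.09 degrees, read 1785 ± 57.7 (SD, n = 4).

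**Figure D1:**
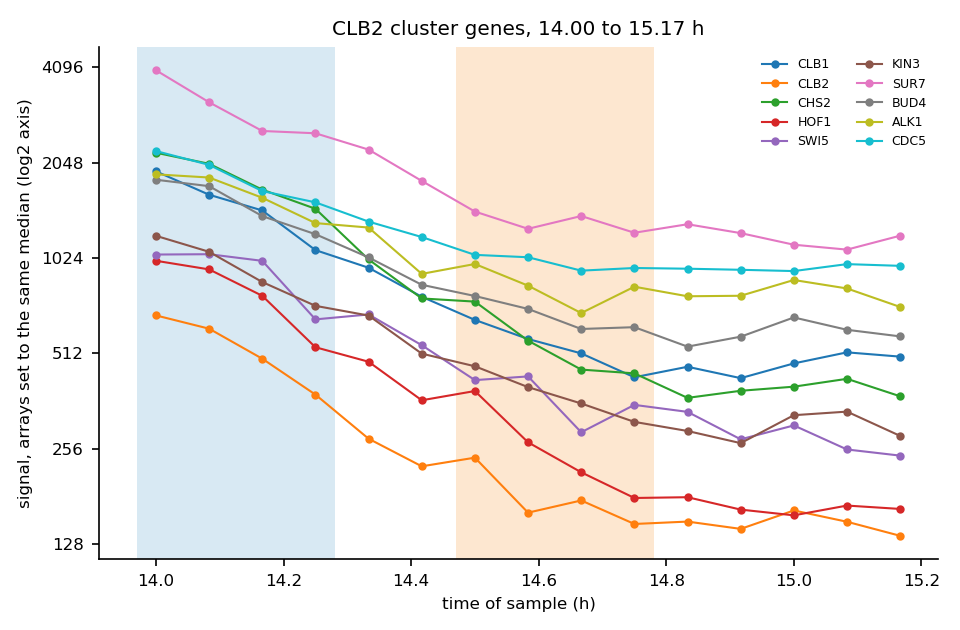
Signal of 10 CLB2 cluster genes in each sample from 14.00 to 15.17 h, with arrays set to the same median (vertical log2 axis). Blue shading marks the 4 early and orange the 4 middle samples. All 10 lines drop between the shaded bands, CLB2 from a mean of 540 to 181.

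The second mitotic cyclin gene, CLB1, moved in parallel, with 1921, 1621, 1446 and 1084 in the early samples, 953 and 772 between, and 653, 568, 512 and 430 in the middle samples (log2 −1.48, SE 0.18, adjusted p = 0.006). The largest fall in the cluster belonged to CHS2, the chitin synthase that lays down the primary septum. Its early signals were 2200, 2029, 1682 and 1463 and its middle signals 745, 561, 455 and 443, a 3.38-fold difference (log2 −1.76, SE 0.18, adjusted p = 0.00438). HOF1, an F-BAR protein of the cytokinetic ring, dropped from 1003, 942, 777 and 535 to 389, 268, 216 and 179, 3.14-fold (log2 −1.65, SE 0.26, adjusted p = 0.0101). No early sample of CLB1, CHS2 or HOF1 was as low as any middle sample.

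Factors that act in the exit from mitosis were among the members that fell. SWI5, the transcription factor of the M/G1 genes, read 1049, 1052, 1002 and 655 in the early and 421, 433, 288 and 352 in the middle samples (log2 −1.32, SE 0.18, adjusted p = 0.00705). The first 3 early samples were level and the last stood lower. KIN3, a protein kinase, fell by 1.32, the plasma membrane protein gene SUR7 by 1.19, the bud site protein gene BUD4 by 1.17, the haspin kinase gene ALK1 by 0.99 and the polo kinase gene CDC5 by 0.89 on the log2 scale. IQG1 and MYO1, which build the contractile ring, fell by 0.51 and 0.47. CDC20, an activator of the anaphase-promoting complex, fell by 0.50, the spindle midzone gene ASE1 by 0.35 and the mitotic exit gene MOB1 by 0.24. The calls of MYO1, CDC20, ASE1 and MOB1 were the fragile ones, lost without 5, 6, 6 and 7 of the 8 single samples. HST3 had a difference of −0.56 with an adjusted p of 0.0806, and PHO3, KIP2, MYO3, TEM1 and BUD8 lay between −0.14 and 0.11.

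The same contrast with the spread taken from all 49 samples left 12 of the 21 genes called, and 11 with array number added to that fit, where 27 of all genes fell (0.497%). Against other reference samples, the 2 of the second pass, whose array numbers lie among those of the middle group, 10 fell where 28 of all genes did (0.516%), with a list median of −0.53. That comparison shares the middle samples with the main one. CLB2 read 423 and 490 in the second pass, above every middle sample.

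Several genes outside the list fell as steeply. YMR030W-A, an open reading frame without a name, had the largest difference of the comparison, from 709, 617, 512 and 399 early to 153, 180, 87.9 and 105 in the middle samples. It was 4.33-fold lower (log2 −2.12, SE 0.24, adjusted p = 0.006), and in the second pass it read 850 and 715. YNL058C, also unnamed, fell by 1.35 and CYK3, which acts in septum formation, by 1.06. SFG1, a putative transcription factor, fell by 1.04. None of these lost its call without any single sample.

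Genes of the M/G1 boundary fell in part. Of 19 genes of this boundary and of origin licensing, 8 fell and 0 rose, with a list median of −0.14. The number that fell was 4 to 8 without single samples, and in the fit of all 49 samples it was 2, PCL9 and SIC1, and 1 against the second pass. PCL9, a cyclin of the Pho85 kinase, stayed level through the early samples at 2976, 3368, 3134 and 3103. It then dropped to 2551 and 2181 between the groups and to 1934, 1658, 1215 and 1100 in the middle samples (log2 −1.13, SE 0.16, adjusted p = 0.00748). In the next window, 322.77 to 354.23 degrees, it stood at 713 ± 164 (SD, n = 5). PCL9 thus held its level while CLB2 was already dropping and descended through the middle samples. PCL2, another Pho85 cyclin gene, fell by 0.70 on the log2 scale.

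Inhibitors of the cyclin-dependent kinase fell within the same interval. SIC1, which blocks S-phase cyclins until late G1, read 3166, 3167, 3652 and 3038 early and 2627, 2485, 1746 and 1776 in the middle samples (log2 −0.61, SE 0.14, adjusted p = 0.042). Its groups did not overlap, but the call was lost without 7 of the 8 single samples, with adjusted p up to 0.107. FAR1, the inhibitor used in pheromone arrest, fell by 0.54 (SE 0.07, adjusted p = 0.00603), from 1405 ± 116.8 to 963 ± 59.4 (SD, n = 4 each), and its call held without each sample.

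The loader of the replicative helicase fell while most helicase subunits did not pass the test. CDC6, which loads the MCM ring onto origins, read 849, 1041, 866 and 825 early and 557, 609, 435 and 531 in the middle samples (log2 −0.75, SE 0.11, adjusted p = 0.00774). MCM5 fell by 0.26 and MCM7 by 0.23 on the log2 scale, calls lost without 3 and 6 of the single samples. MCM2, MCM3, MCM4 and MCM6 had differences of −0.06, −0.11, −0.09 and −0.07 with adjusted p of 0.21 or more. The wall protein gene PIR1 fell from 14732 ± 1178 to 9228 ± 1829 (SD, n = 4 each; log2 −0.69, adjusted p = 0.0206), a call lost without 3 of the single samples.

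**Figure D2:**
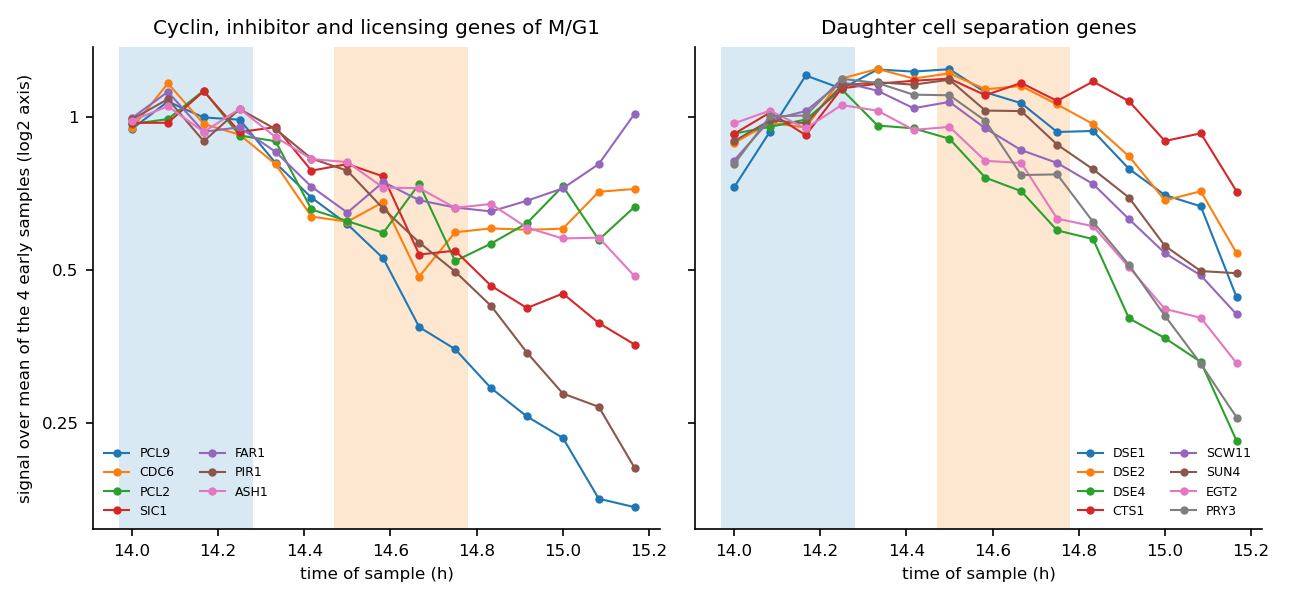
Signal of each gene over its mean in the 4 early samples (log2 axis), from 14.00 to 15.17 h, for 6 M/G1 genes with ASH1 on the left and 8 daughter separation genes on the right. Blue and orange shading mark the early and middle samples. The PCL9 mean goes from 3145 to 1477, while CTS1 stays between 12402 and 16011 from the first early to the last middle sample.

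Most daughter separation genes had their highest level of the cycle in the early samples or just after them. Of the 19 tested, 14 had their highest window in the early samples or between the groups, and CBK1, HYM1, KIC1, TAO3 and MOB2 had it later, MOB2 with its lowest in the early samples. Of the 5428 genes tested, 77 had their highest window in the early samples and 174 between the groups. Between early and middle samples 1 of the 19 fell and 0 rose, with a list median of −0.10. The number that fell was 6 without the first middle sample, 2 without the first early sample and 1 without any other single sample. It was 7 with the signals as deposited, 6 with a filter at a median signal of 100, and 0 against the second pass and in the fit of all 49 samples. The 1 was ASH1, the daughter-specific repressor of HO, at 8865 ± 467 in the early and 6484 ± 554 in the middle samples (SD, n = 4 each; log2 −0.45, SE 0.07, adjusted p = 0.00866). DSE1, a daughter-specific gene, read 3742, 4815, 6208 and 5848 in the early samples, 6379 and 6317 between, and 6387, 5754, 5476 and 4808 in the middle samples. Its highest samples lay at 14.33 to 14.50 h, inside the interval, and the group means of 5153 ± 1111 and 5606 ± 654 (SD, n = 4 each) did not pass the test (log2 0.14, adjusted p = 0.69).

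Among septum enzyme genes, CTS1 and DSE2 followed a like course, while DSE4 was lower in the middle samples. CTS1, the endochitinase, read 12470, 13733, 12402 and 15325 early, 15648 and 15859 between, and 16011, 14857, 15702 and 14474 in the middle samples (log2 0.18, adjusted p = 0.21). DSE2, a glucanase-like wall protein gene, had its highest signal of 10844 between the groups (log2 0.19, adjusted p = 0.27). DSE4, an endoglucanase gene, stood at 10023 to 12250 early and at 6472 to 9794 in the middle samples. Its groups did not overlap, but the difference of −0.44 missed the threshold (adjusted p = 0.0732). SCW11, SUN4 and EGT2 had differences of −0.11, 0.04 and −0.33, DSE3, NIS1 and BUD9 of −0.50, −0.46 and −0.46, and PRY3 and AMN1 of −0.15 and −0.22, each with adjusted p above 0.05.

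Of the 19 genes, 15 (78.9%) had their highest signal of the 10 samples at 14.25 to 14.50 h, against 27.2% of all genes tested. The span was not among the planned comparisons, and the list was written with earlier results of these data known. The share is therefore a description and not a test. This span includes the last early and the first middle sample, and AMN1, BUD9 and CBK1 were highest in the last early one. The mean log2 signal of the list, relative to the early samples, was 0.04 between the groups, −0.14 in the middle, −0.63 at 322.77 to 354.23 degrees and −2.08 at its lowest, 423.27 to 446.24 degrees. A contrast of 2 group means can miss a peak that lies between them, and whether it did so here was not tested. With the intensity trend in the eBayes step 6 members fell, and in a linear trend over the 10 samples 5.

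Among regulators of Start, the commitment point of G1, the 2 inhibitors already named were the ones that passed the test. Of 20 genes, SIC1 and FAR1 fell and 0 rose. CLN3, the G1 cyclin that begins Start, read 1816, 2180, 2064 and 2075 early and 1992, 1979, 1340 and 1926 in the middle samples (log2 −0.18, adjusted p = 0.48). Apart from the single value of 1340 the middle samples lay within the range of the early ones. The repressor WHI5 had a difference of 0.00 (SE 0.14), SWI4, the DNA-binding part of SBF, −0.14 (SE 0.09), SWI6, shared by SBF and MBF, −0.04 (SE 0.08) and MBP1, the DNA-binding part of MBF, 0.10 (SE 0.09).

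A few late G1 genes rose. Of 32 targets of SBF and MBF tested, 6 rose and 1 fell, with a list median of 0.08, or −0.19 with the signals as deposited, as setting arrays to the same median shifts all genes alike. It lay 0.07 above the median of all genes, and 0.06 with quantile normalization. Without single samples 4 to 6 rose, with the signals as deposited and against the second pass 2 each, and in the fit of all 49 samples 0. PCL1, a late G1 cyclin of Pho85, read 342, 437, 520 and 500 early, 634 and 673 between, and 799, 793, 765 and 861 in the middle samples (log2 0.86, SE 0.12, adjusted p = 0.00748). HO, the mating-type endonuclease gene, read 408, 511, 548 and 583 early, 748 and 705 between, and 862, 942, 897 and 947 in the middle samples (log2 0.84, SE 0.10, adjusted p = 0.006). Both genes already increased across the early samples. The middle level of HO was a small part of its peak of 5428 ± 360 (SD, n = 4) at 392.66 to 415.62 degrees.

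The G1 cyclin gene CLN2 rose from 1042 ± 77.9 to 1399 ± 83.7 (SD, n = 4 each; log2 0.43, SE 0.07, adjusted p = 0.0101) and reached 3733 ± 342 (SD, n = 4) at 392.66 to 415.62 degrees. TOS6, a wall protein gene of the SBF group, rose by 0.61 and RNR1, the large subunit of ribonucleotide reductase, by 0.40 on the log2 scale. CLB5, an S-phase cyclin gene, rose by 0.22 (adjusted p = 0.0376), and with the signals as deposited its difference was −0.06. YHP1, a homeodomain repressor, fell by 0.44. The calls of RNR1 and CLB5 were each lost without 6 and that of YHP1 without 7 of the single samples. CLN1 had a difference of −0.15 (adjusted p = 0.15), CLB6 of 0.46 (SE 0.21, adjusted p = 0.28) and MCD1, a cohesin subunit gene, of 0.33 (adjusted p = 0.0785). Of 9 core histone genes HTB2 alone rose, from 3724 ± 102 to 5135 ± 488 (SD, n = 4 each; log2 0.46, adjusted p = 0.00814), a gene with a near-identical copy that the probes may not separate.

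Ribosome biogenesis supplied the largest group of genes that rose. Of 118 tested, 44 rose and 0 fell, with sizes from 1.15-fold to 1.59-fold. The list median was 0.22, but −0.05 with the signals as deposited, where 0 were called. It lay 0.21 above the median of all genes, and 0.20 with quantile normalization. The difference was positive in all but 1 of the 118 genes (99.2%), against 55.8% of all genes. DBP2, an RNA helicase gene, had the largest difference, with 682, 412, 451 and 479 early, 548 and 577 between, and 724, 743, 817 and 886 in the middle samples (log2 0.67, SE 0.14, adjusted p = 0.0348). Its first early sample stood apart from the other 3, and the call was lost without 6 of the 8 single samples.

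NSR1, the yeast nucleolin, read 2044, 1955, 2165 and 2129 early, 2376 and 2699 between, and 2963, 2695, 3231 and 3479 in the middle samples (log2 0.57, SE 0.08, adjusted p = 0.00705). The early samples were level and the middle ones all higher. NOP4, a nucleolar protein gene, rose by 0.45 and RIX1, of 60S assembly, by 0.44, and these calls were lost without 7 and 6 of the single samples. The number of list members that rose was 6 without the second early sample, 16 to 23 without one of the other early samples, 48 without the first middle sample, and 10 to 21 without one of the later middle samples. It was 0 in the fit of all 49 samples, with or without array number, although the list median with array number was 0.17. Against the second pass the median was 0.23, with 3 called where 8 of all genes rose (0.147%).

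Related growth genes moved less. Of 26 genes of RNA polymerases I and III, RPA12 rose by 0.30 and RPA43 by 0.25 on the log2 scale, the latter at −0.02 with the signals as deposited, and the list median was 0.13. TOD6, a repressor of ribosome biogenesis genes, rose by 0.34 among 17 regulators. Of 127 cytosolic ribosomal protein genes 125 had a positive difference, with a median of 0.08, but only RPL22B passed the test (log2 0.27, adjusted p = 0.0351). Of 80 mitochondrial ribosomal genes 8 had a positive difference (10%), with a median of −0.10, and MRPL7 fell by 0.16. The call of MRPL7 was lost without any 1 of the 8 samples, that of RPL22B without 7, that of RPA12 without 5 and those of RPA43 and TOD6 without 1 each. Relative to the median of all genes the ribosomal lists were at 0.07 and −0.11, and at 0.05 and −0.11 with quantile normalization.

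**Figure D3:**
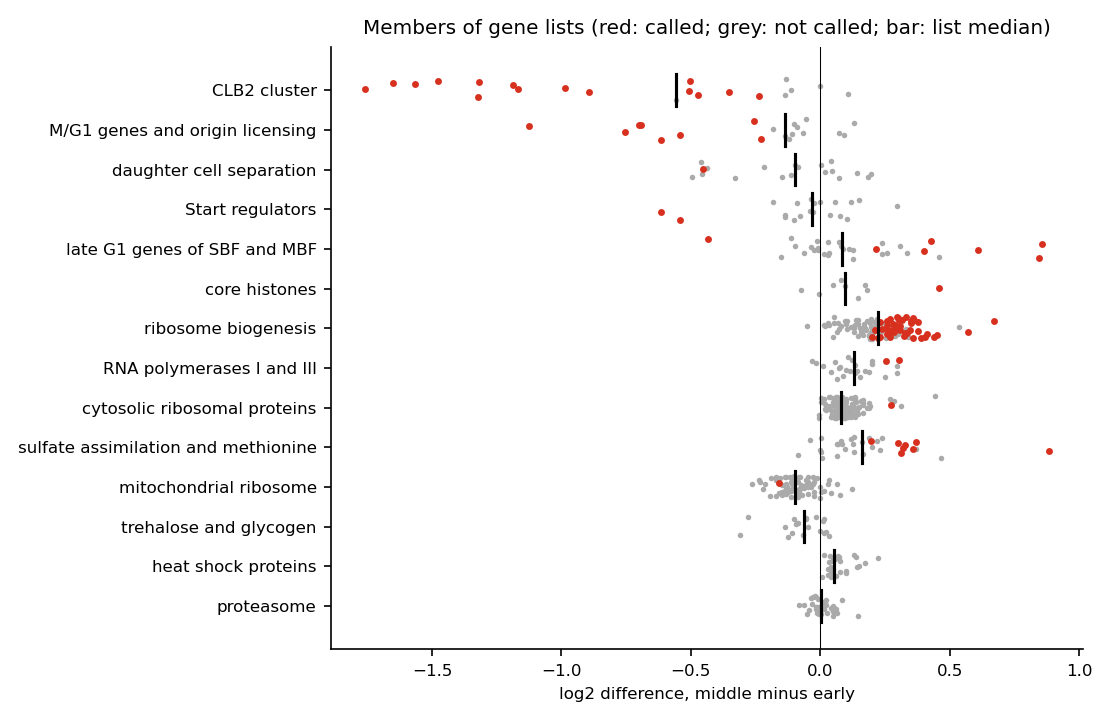
Log2 difference, middle minus early, of every tested member of 14 gene lists with arrays set to the same median. Red points passed the test, grey points did not, and the black bar is the list median. The CLB2 cluster centres on −0.56 and ribosome biogenesis on 0.22 (−0.83 and −0.05 with the signals as deposited).

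Genes of sulfur uptake and methionine rose as well. Of 33 tested, 8 rose and 0 fell, with a list median of 0.16, or −0.11 with the signals as deposited, where 1 rose. MUP1, the high-affinity methionine permease, had the largest rise among the called genes. It went from 1327, 1110, 1314 and 1432 early and 1567 and 1661 between to 2066, 2444, 2234 and 2852 in the middle samples (log2 0.88, SE 0.11, adjusted p = 0.006). The second pass read 1303 and 1320, within the early range. MET2, which acetylates homoserine, rose by 0.37, STR3, a cystathionine lyase gene, by 0.36, MET32, a regulator of the pathway, by 0.33 and SUL2, a sulfate permease gene, by 0.32. MET1 and MET8, which make siroheme for sulfite reduction, rose by 0.31 and 0.30, and the S-methylmethionine permease gene MMP1 by 0.20 (−0.08 as deposited). The call of MMP1 was lost without any 1 of the 8 samples (adjusted p 0.0652 to 0.138), those of MET1 and SUL2 without 7, that of MET8 without 6 and that of MET32 without 1. The number of members that rose lay between 3 and 7 without single samples and was 0 in the fit of all 49 samples.

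Other biosynthetic genes rose in small numbers. HOM3, the aspartate kinase gene, rose by 0.31, LYS1 and LYS20 of lysine synthesis by 0.25 and 0.24, AAH1, the adenine deaminase gene, by 0.58 and URA7, a CTP synthase gene, by 0.49 on the log2 scale. With the signals as deposited LYS1 and LYS20 were at −0.02 and −0.03. IMD2, which makes guanine nucleotide precursors, fell from 156 ± 16.6 to 99.7 ± 7.07 (SD, n = 4 each; log2 −0.64, adjusted p = 0.00692). HOM3 was the 1 called of 19 glycine, serine and one-carbon genes, and LYS1 and LYS20 were 2 of 11 lysine genes. The 33 purine and pyrimidine genes held 2 that rose and 1 that fell. Over all genes tested 2.95% rose and 1.64% fell. Among 22 genes of aromatic amino acids and histidine, ARO9, a transaminase of aromatic amino acid breakdown, fell by 0.21. The call of ARO9 was lost without 7 of the 8 single samples, those of HOM3, LYS1 and LYS20 without 6 each, that of AAH1 without 5 and that of URA7 without 4.

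Carbon metabolism held a few marked falls in lists that were otherwise not called. FBP1, the fructose bisphosphatase of gluconeogenesis, read 3596, 3428, 3109 and 3136 early, 2656 and 2435 between, and 2138, 1855, 1753 and 1749 in the middle samples (log2 −0.83, SE 0.08, adjusted p = 0.00438). STL1, the glycerol symporter, fell from 1724 ± 57.9 to 1021 ± 88.8 (SD, n = 4 each; log2 −0.76, SE 0.06, adjusted p = 0.00389). The early and middle samples of both genes were apart, and both calls held without each single sample. None of the other 25 gluconeogenesis and acetate genes and none of the other 16 hexose transporter list members passed the test. DCI1 and ECI1, of fatty acid oxidation, fell by 0.33 and 0.21, 2 of 49 genes tested, with calls lost without 7 and 2 of the single samples. Over all genes tested 1.64% fell.

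Some cell surface genes fell. Of 40 cell wall genes, PIR1, CRH1, EXG1, CHS1 and PST1 fell, by 0.26 to 0.69 on the log2 scale, and 1, GAS3, rose by 0.30. Over all genes tested 1.64% fell and 2.95% rose. The calls of PST1 and GAS3 were lost without 6 and 5 of the single samples. CRH1, which links chitin to glucan, fell from 7010 ± 366 to 4926 ± 366 (SD, n = 4 each; adjusted p = 0.006), and EXG1, an exoglucanase gene, from 11868 ± 829 to 9014 ± 596 (SD, n = 4 each; adjusted p = 0.0133). CHS1, the repair chitin synthase, fell by 0.34. PIS1, which makes phosphatidylinositol, fell by 0.28, the 1 called of 28 fatty acid and phospholipid genes. HES1, of the oxysterol-binding family, rose by 0.41, the 1 called of 27 ergosterol genes, and this call was lost without 6 of the single samples.

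Few stress and redox genes passed the test. In redox defence TRR1, the thioredoxin reductase, fell by 0.33 and the peroxidase gene DOT5 by 0.18, while GPX2 rose by 0.34 and SRX1, the sulfiredoxin, by 0.32. These were 2 falls and 2 rises among 32 genes tested, where 1.64% of all genes fell and 2.95% rose. The call of DOT5 was lost without any 1 of the 8 samples, that of GPX2 without 6 and that of TRR1 without 3. GPP2, a glycerol phosphatase gene, rose by 0.31 and was the 1 called of 26 stress and stationary phase genes. All 28 heat shock protein genes tested had a positive difference, with a median of 0.05, which is 0.04 above that of all genes, also with quantile normalization, and none was called. Of 31 meiosis and sporulation genes, SPR1, SPS100 and SPS1 rose by 0.37, 0.33 and 0.23, and SPS4 fell by 0.72. The call of SPR1 was lost without any 1 of the 8 samples (adjusted p 0.0525 to 0.134), and those of SPS100 and SPS1 without 6 each. SPR1 was −0.17 against the second pass and SPS1 −0.04 with the signals as deposited. In 15 of the 43 lists no member was called, among them the proteasome (35 genes, median 0.00), the respiratory chain and ATP synthase (40 genes, median −0.05), the tricarboxylic acid cycle (17 genes, median −0.05), glycolysis (25 genes, median 0.04) and trehalose and glycogen (20 genes, median −0.06). A missed threshold at this number of samples does not show that their levels were equal.

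Some of the largest rises belonged to genes of no list. YDL218W, of unknown function, read 908, 910, 951 and 1209 early, 1291 and 1495 between, and 1557, 1535, 2099 and 1984 in the middle samples (log2 0.85, SE 0.13, adjusted p = 0.00912). It peaked at 1970 ± 138 (SD, n = 5) in the next window and stood at 279 ± 420 (SD, n = 4) at 362.04 to 385.00 degrees. GFD2 rose by 0.82 and PRY2, which encodes a secreted sterol-binding protein, by 0.54. YNL277W-A rose by 0.57. YHL009W-A rose from 22.8 ± 4.81 to 36.2 ± 1.98 (SD, n = 4 each; adjusted p = 0.0256), a dim signal that read 43.2 and 51.9 in the second pass. Its call was lost without 5 of the single samples. Of the called genes, 47 of the 89 that fell and 84 of the 160 that rose are in none of the 43 lists. The same holds for 4198 of the 5428 genes tested, a larger share.

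**Figure D4:**
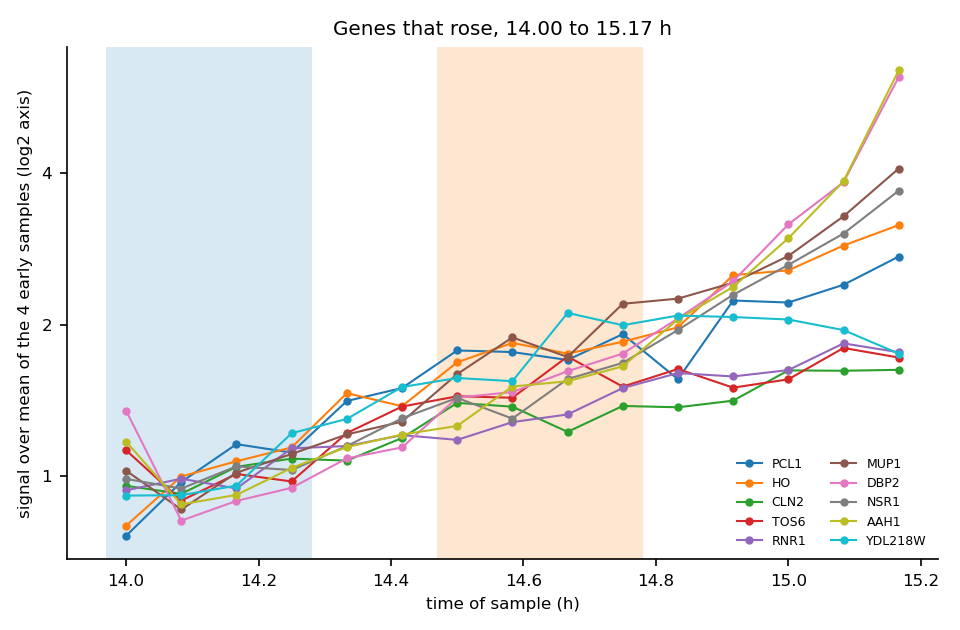
Signal over the mean of the 4 early samples (log2 axis) of 10 genes that rose, in each sample from 14.00 to 15.17 h, with arrays set to the same median. Blue and orange shading mark the early and middle samples. MUP1, with 1.85-fold, is the highest of the 10 over the middle samples, and all 10 have a higher mean in the samples after 14.75 h than in the middle samples.

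Most genes that rose had their highest level in a later window. Of the 160, 127 had their highest window at 362.04 to 385.00 degrees, against 1730 of the 5428 genes tested. The median ratio of the highest to the lowest window was 14.6-fold for the genes that rose, 4.13-fold for those that fell and 2.07-fold for all genes. DBP2 went from 793 ± 74.3 in the middle samples to 12981 ± 4038 (SD, n = 4 each) and NSR1 from 3092 ± 338 to 15844 ± 3460 at 362.04 to 385.00 degrees. The genes that fell had no common peak: 16 of 89 peaked at 545.74 to 568.70 degrees, 14 at 423.27 to 446.24, and 12 each at 453.89 to 476.85 and at 515.12 to 538.09. Of the 5428 genes tested, 78, 598, 1559 and 73 peaked in these windows.

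**Figure D5:**
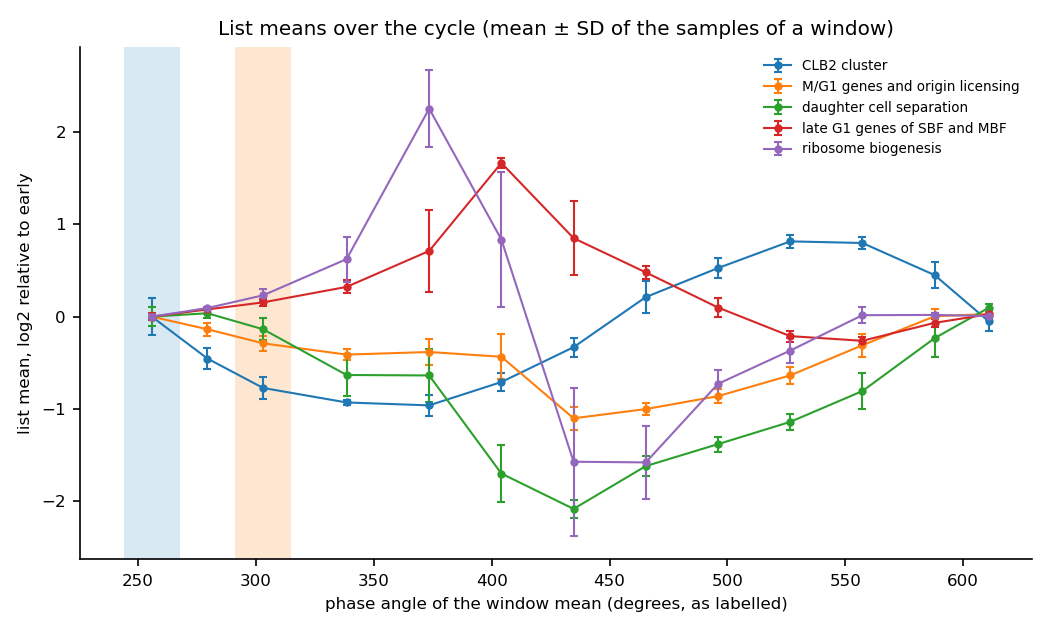
Mean log2 signal of 5 gene lists in each phase window relative to the early samples, with arrays set to the same median (mean ± SD of the samples of a window), against labelled phase angle up to the second pass. The CLB2 cluster falls to −0.77 in the middle samples, ribosome biogenesis climbs to 2.26 at 362.04 to 385.00 degrees, and all 5 lists return to within 0.10 of the early level in the second pass.

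The next step in time continued the course of some lists and not of others. From the middle samples to the 5 samples at 322.77 to 354.23 degrees, which share the middle samples with the comparison above, 0 genes passed limma's adjusted threshold (0%) and 1461 had an unadjusted p under 0.05 (26.9%). Without the first later sample, at 322.77 degrees, 393 rose (7.24%) and 328 fell (6.04%). The list medians of this step were −0.63 for daughter separation, with 17 of 19 genes below 0, 0.40 for ribosome biogenesis, with 115 of 118 above 0, and 0.15 for late G1 genes, with 28 of 32 above 0. The M/G1 median was 0.04, with 12 of 19 genes above 0, and that of heat shock genes was −0.10, with 4 of 28 above 0, both of the opposite sign to the step before. The M/G1 list mean did not turn: relative to the early samples it went from −0.29 in the middle samples to −0.41 in this window. The CLB2 cluster had a median of −0.16, and CLB2 stood at 149 ± 10.2 (SD, n = 5). CLB2 was then at the lowest of its window means.

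In the second pass the lists returned to the early level. Relative to the early samples, their means stood at −0.05 for the CLB2 cluster, 0.03 for M/G1 genes, 0.10 for daughter separation, 0.03 for late G1 genes and 0.01 for ribosome biogenesis. CHS2 read 1882 and 1302, PCL9 3219 and 2697, HO 429 and 545 and NSR1 2083 and 2317, each within or near the early range and outside the middle range. With these 2 samples in place of the early group, 8 genes rose and 28 fell. Of the 87 called genes named here, 23 were still called and 2, SPR1 and YHL009W-A, had the opposite sign.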

How the data were processed

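RNA of 49 successive samples was amplified from oligo(dT) primers, labelled with biotin and measured on Affymetrix Yeast Genome 2.0 arrays, per the labels' protocols. The authors deposited linear intensities, 1 signal per probe set, and the submitters' processing notes name GCOS as the tool. No source used here gives the GCOS version or settings.

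Of 10928 probe sets, 5498 had 1 S. cerevisiae gene in the platform annotation, 1746 had genes of another species, 1 had several genes and 3683 had none. RefSeq gene identifiers updated 12 symbols. A dim filter used the other-species probe sets as background: a probe set was tested if its median over the arrays was above 11.2, their 75th percentile. This left 5470 probe sets of 5428 genes and removed 28. Signals under 1 were set to 1, log2 was taken and each array was set to the same median. The early and middle groups were compared with limma 3.58.1 in R 4.3.3 (lmFit, eBayes, Benjamini-Hochberg at 0.05). The number of arrays limits the precision. On simulated data of this design 40% of 50 probe sets changed 1.2-fold, 96% at 1.5-fold and 100% at 2-fold were recovered. Of the 5470 simulated probe sets, changed ones included, 6 unchanged ones were called. Whether these rates hold for successive samples of 1 culture was not tested. In the real data, leaving out single samples gave 33 to 185 rises.

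Genes named were the 12 largest rises and falls among called genes whose groups did not overlap, the 4 called members with the largest difference in each list, and all members of the separation, M/G1 and Start lists, of which some are given as ranges or counts. Others were added after their values were seen. The samples and the 43 lists were chosen with earlier results of these data known. Adjustment ran over probe sets and counts are of genes, with the brightest probe set for each of the 41 genes that had several, of which 4 had differing calls. Counting by gene in place of probe set was chosen after the results were seen. Figures and tables used Python 3.11.15, numpy 2.4.6, pandas 2.3.3, scipy 1.17.1 and matplotlib 3.10.9.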

Additional observations from a re-analysis of the deposited data

Results flagged for a closer look

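In the early and middle groups of 116 genes, 232 groups of 4 samples were looked at for a highest or lowest sample whose gap to its nearest neighbour, as a part of the range of the group, passed Dixon's critical value. Chance marks about 1 in 20 such groups, and 12 were marked. Among cell cycle genes, SWI5 was lowest in the fourth early sample at 655.1, with the other 3 between 1002 and 1052. CLN3 read 1340 in 1 middle sample, against 1926 to 1992 in the others, and CLN2 read 1274 in the same sample, against 1430 to 1455. MOB1 was also lowest there, at 1623 against 1723 to 1743. CLB5 was highest in the third early sample at 801.3, against 737.3 to 739.6. HTB2 had a lowest early value of 3572, against 3763 to 3792.

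Among the other genes, RPA43 had a highest early value of 965.4, against 894.2 to 904.2. MET32 had a highest early value of 1201, against 1121 to 1127, and STR3 a highest middle value of 3879, against 3445 to 3504. YDL218W read 1209 in the last early sample, against 908.4 to 950.8 before it. GPP2 had a highest middle value of 2685, against 2373 to 2409. DOT5 had a lowest early value of 2701, against 2826 to 2846.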

How the results depend on the processing

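With the signals as deposited, 20 genes rose and 206 fell, and the list medians were −0.3702 for daughter separation, −0.4103 for M/G1, −0.1889 for late G1, −0.8288 for the CLB2 cluster, −0.0506 for ribosome biogenesis and −0.1113 for sulfur genes. Of the named genes, 6 then changed sign: LYS1 (−0.0181), LYS20 (−0.0331), MMP1 (−0.0762), RPA43 (−0.0196), SPS1 (−0.0379) and CLB5 (−0.0567). The median of all genes was then −0.257. Quantile normalization gave 137 falls and the intensity trend 135, while the linear trend over 10 samples gave 279 rises and 167 falls. All 49 samples in 1 fit gave 1 rise and 32 falls, and 1 and 27 with array number. With the second pass in place of the early samples 8 rose and 28 fell, SPR1 was −0.1726 and YHL009W-A −0.3901, and with it added 254 rose and 166 fell. The M/G1 median was −0.2434 with array number, −0.2549 with the second pass in place and −0.2088 with it added. The cause of these shifts was not tested.

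From the middle to the next window 307 were called as deposited and 10 in the fit of all 49 with array number, an alternative chosen after seeing the data. Leaving out single samples gave 33 to 185 rises, 47 to 91 falls and 0 to 721 calls in the next step, which reached 721 without its first later sample. The same repeats gave list medians of −0.1422 to −0.0608 for daughter separation, −0.1934 to −0.0998 for M/G1, 0.0548 to 0.1088 for late G1, −0.7021 to −0.4726 for the CLB2 cluster, 0.1944 to 0.246 for ribosome biogenesis and 0.1361 to 0.1835 for sulfur genes. Of the 87 called genes named, 79 were still called with quantile normalization, 18 in the fit of all 49, 17 with array number and 49 as deposited. No paired analysis was possible because the labels give no replicate numbers that the groups share.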
